A study of Mus musculus with 8 samples.

Results

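The motile cilium axoneme genes described here were all genes of the deposited tables whose symbol begins with Dnah, Dnaic, Dnai, Tekt or Cfap followed by a number, which gave 53 of 19348 genes. No symbol with Dnai directly before a number occurred, and the intermediate chains were listed as Dnaic1 and Dnaic2. The 53 genes lie on 17 chromosomes, and each had more than 3 counts in at least 1 library. RNA was sequenced from liver and eWAT, the epididymal white adipose tissue, of C57BL/6 male mice aged 12 weeks on a normal diet that were killed after a fast of 16 h. Mice labelled Crtc1-/- carried a whole-body deletion made with CRISPR/Cas9 in the gene for CREB regulated transcription coactivator 1, and mice labelled Crtc1+/+ were wild-type. Each tissue had 2 libraries per genotype, 8 in all. The paper describes 2 mice per genotype, from which liver and eWAT were taken. The labels do not state whether liver and eWAT of the same replicate number came from 1 mouse. The study asked how loss of Crtc1 changes gene expression in the 2 tissues, and here the axoneme genes were followed through the same libraries beside Prm1 and Prm2, the protamines that pack sperm DNA.

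A motile cilium or sperm tail is built on an axoneme, a ring of doublet microtubules around a central pair. Outer and inner dynein arms, each built on dynein heavy chains, slide neighbouring doublets, radial spokes and the central pair control the arms, and tektins and other inner proteins hold the doublets together. In the male tract such axonemes are found in sperm and in the multiciliated cells of the efferent ducts, while adipocytes and hepatocytes have at most a primary cilium without dynein arms. Foxj1 and the Rfx factors, which bind the X-box, are known to switch on this programme.

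Library totals ran from 16560085 to 19721481 counts, so that 3 counts amounted to 0.152 to 0.181 CPM (CPM is a gene's count scaled to a common library total). The targeted gene was not lower on average where the label was Crtc1-/-. The eWAT level of Crtc1 was 57.6 and 27.5 CPM where the label was Crtc1-/-, against 36.9 and 36.9 CPM where it was Crtc1+/+. Its liver level was 22.1 and 18.6 CPM against 11.6 and 9.61 CPM. These values cover the whole gene and do not check the deleted exons, so genotypes are given throughout as labelled. The eWAT libraries also stood apart from each other in cell type markers. A list of 33 epididymal epithelium genes, led by Gpx5, took 10.8% and 12.2% of all counts in the Crtc1+/+ libraries. The same list took 0.0146% (95% Wilson interval 0.014% to 0.0151%) in Crtc1-/- replicate 1 and 0.00202% (0.00182% to 0.00224%) in replicate 2. The 12 adipocyte genes took 4.15% and 1.98% against 0.227% and 0.36%. The 12 hepatocyte genes took 11.5% of the counts of eWAT Crtc1-/- replicate 2, against 0.131% to 0.71% in the other 3 eWAT libraries and 21.4% to 25% in liver. In Crtc1-/- replicate 1, Cyp2e1, a cytochrome P450 of that list, made up 4902 of its 6047 CPM, and it stood at 7012 CPM in replicate 2 and at 564 and 539 CPM in the Crtc1+/+ libraries, whereas Alb, the liver albumin, stood at 513, 53440, 3131 and 461 CPM. Counting error alone enters the intervals. In bulk tissue, fewer cells of a type and less RNA per cell cannot be told apart, and in these eWAT libraries genotype and epididymal content cannot be told apart either.

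Upstream sequence was the first property that the choice by symbol had not used. RefSeq promoters of GRCm38.p6 were matched for 45 of the 53 genes, and the 250 bases before each start were searched on both strands. An X-box-like match, written as GTNNCC, then 0 to 3 bases, then NGNAAC, occurred in 12 of the 45 genes, or 26.7%, against 5.04% of 27025 genes with a promoter. The forkhead words TGTTTAC or TGTTTGT occurred in 5 of 45 genes, or 11.1%, against 9.86% of all genes. The CREB site TGACGTCA occurred in 1 of 45, or 2.22%, against 1.77%, and that gene was Dnah6. The 4 upstream sequences that follow belong to an outer arm heavy chain, a tektin, an intermediate chain and the Dnah6 gene, with the X-box match of the first 3 and the CREB site of the last in capitals. Each runs 5′ to 3′ in the direction of its gene, at chr11:66168552-66168801 (minus strand, Dnah9), chr4:126325689-126325938 (minus strand, Tekt2), chr11:114727169-114727418 (plus strand, Dnaic2), chr6:73221632-73221881 (minus strand, Dnah6).
Dnah9: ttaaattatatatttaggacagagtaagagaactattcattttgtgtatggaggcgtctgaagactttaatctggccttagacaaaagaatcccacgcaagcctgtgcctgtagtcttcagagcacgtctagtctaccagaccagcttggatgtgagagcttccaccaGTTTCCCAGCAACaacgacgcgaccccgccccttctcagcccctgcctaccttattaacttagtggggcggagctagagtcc
Tekt2: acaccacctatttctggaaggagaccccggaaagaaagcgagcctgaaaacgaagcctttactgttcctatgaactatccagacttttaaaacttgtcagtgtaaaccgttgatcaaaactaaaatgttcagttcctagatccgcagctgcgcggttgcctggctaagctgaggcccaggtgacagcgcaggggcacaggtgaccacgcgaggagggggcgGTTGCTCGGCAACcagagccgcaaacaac
Dnaic2: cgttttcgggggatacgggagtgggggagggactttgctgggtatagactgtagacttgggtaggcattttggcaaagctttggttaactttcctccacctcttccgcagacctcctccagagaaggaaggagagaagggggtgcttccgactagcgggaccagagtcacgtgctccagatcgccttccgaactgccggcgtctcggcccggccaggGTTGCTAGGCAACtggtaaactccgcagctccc
Dnah6: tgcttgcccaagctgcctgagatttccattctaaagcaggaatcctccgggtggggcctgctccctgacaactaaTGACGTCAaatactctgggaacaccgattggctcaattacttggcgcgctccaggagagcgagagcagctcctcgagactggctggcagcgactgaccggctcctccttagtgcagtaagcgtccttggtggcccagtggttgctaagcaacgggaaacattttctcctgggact

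Of the 12 genes with an X-box match, 8 had one that ended within 50 bases of a start. The matches of the other genes are printed in capitals with up to 10 flanking bases. All were found with the same pattern, so their likeness was set by the search and shows nothing about a shared element. Cfap298 had a pair of matches.
Cfap206, chr4:34730207-34730239, minus strand: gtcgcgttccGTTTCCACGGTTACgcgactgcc
Cfap298, chr16:90935014-90935047, minus strand: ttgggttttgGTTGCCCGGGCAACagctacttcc
Cfap298, chr16:90934894-90934928, minus strand: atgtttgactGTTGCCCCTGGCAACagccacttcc
Cfap44, chr16:44394762-44394795, plus strand: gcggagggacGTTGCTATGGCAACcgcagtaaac
Cfap45, chr1:172521101-172521129, plus strand: tagttcttggGTTGCTATGGTAACgcgtc
Cfap58, chr19:47937643-47937675, plus strand: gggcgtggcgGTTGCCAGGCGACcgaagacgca
Cfap99, chr5:34288620-34288652, plus strand: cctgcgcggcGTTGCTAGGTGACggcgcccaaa
Dnah17, chr11:118129355-118129388, minus strand: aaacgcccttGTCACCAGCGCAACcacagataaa
Dnaic1, chr4:41569765-41569793, plus strand: gtgcctgtcgGTTGCTGGGTAACcgcgtc
Tekt4, chr17:25471420-25471453, plus strand: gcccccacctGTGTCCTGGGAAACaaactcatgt

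In eWAT labelled Crtc1+/+, the axoneme genes were expressed at a level far above that in liver. Their summed level was 507 CPM in replicate 1 and 264 CPM in replicate 2, against 26.5 and 31.3 CPM in Crtc1+/+ liver. Both eWAT libraries lay above both liver libraries for 52 of the 53 genes, the exception being Cfap61, which had no count in eWAT Crtc1+/+ replicate 2. The same count was not made over all genes, so the 52 only describes this group. In a single fit of all libraries, 47 of the 53 genes passed the filter on low counts, and edgeR's quasi-likelihood test called 35 of them higher in eWAT at an adjusted p under 0.05, where 35% of all 15587 genes tested were called higher, and none lower. Many of the 47 passed the filter through eWAT alone, so this count is a description. At most 3 counts were found in every liver library for 39 of the 53 genes. Tekt1, a filament protein of the doublet wall, had 33.1 and 8.06 CPM in eWAT labelled Crtc1+/+ and no count in any liver library, which makes it at least 135-fold higher against 3 counts per liver library.

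The 6 genes with 10 or more counts in each liver library were Cfap20, Cfap298, Cfap36, Cfap97, Cfap126 and Dnaic1. Cfap298, needed to assemble dynein arms, stood at 28.1 and 21.5 CPM in Crtc1+/+ eWAT and at 9.63 and 10.3 CPM in Crtc1+/+ liver, and after TMM scaling, which allows for the counts taken by the most abundant genes of a tissue, the log2 difference was -0.08 (SE 0.25, adjusted p = 0.79 by edgeR), so its direction depended on the scaling. Cfap20, an inner protein of the doublet also found in primary cilia, stood at 35.8 and 39.2 CPM against 8.21 and 12 CPM (log2 difference after TMM scaling 0.49, SE 0.35, adjusted p = 0.263 by edgeR). Per transcript length, these were also the most abundant of the 53 genes in Crtc1+/+ eWAT, with 32.8 ± 2.19 FPKM (a level scaled to library size and transcript length, SD, n = 2) for Cfap20, 25.5 ± 11.5 FPKM for Cfap126 and 24.5 ± 4.55 FPKM for Cfap298. Tekt1 followed with 16.3 ± 14 FPKM. The 15 dynein heavy chains, encoded by very long transcripts, reached at most 1.35 ± 1.61 FPKM, the value of Dnah8.

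**Figure D1:**
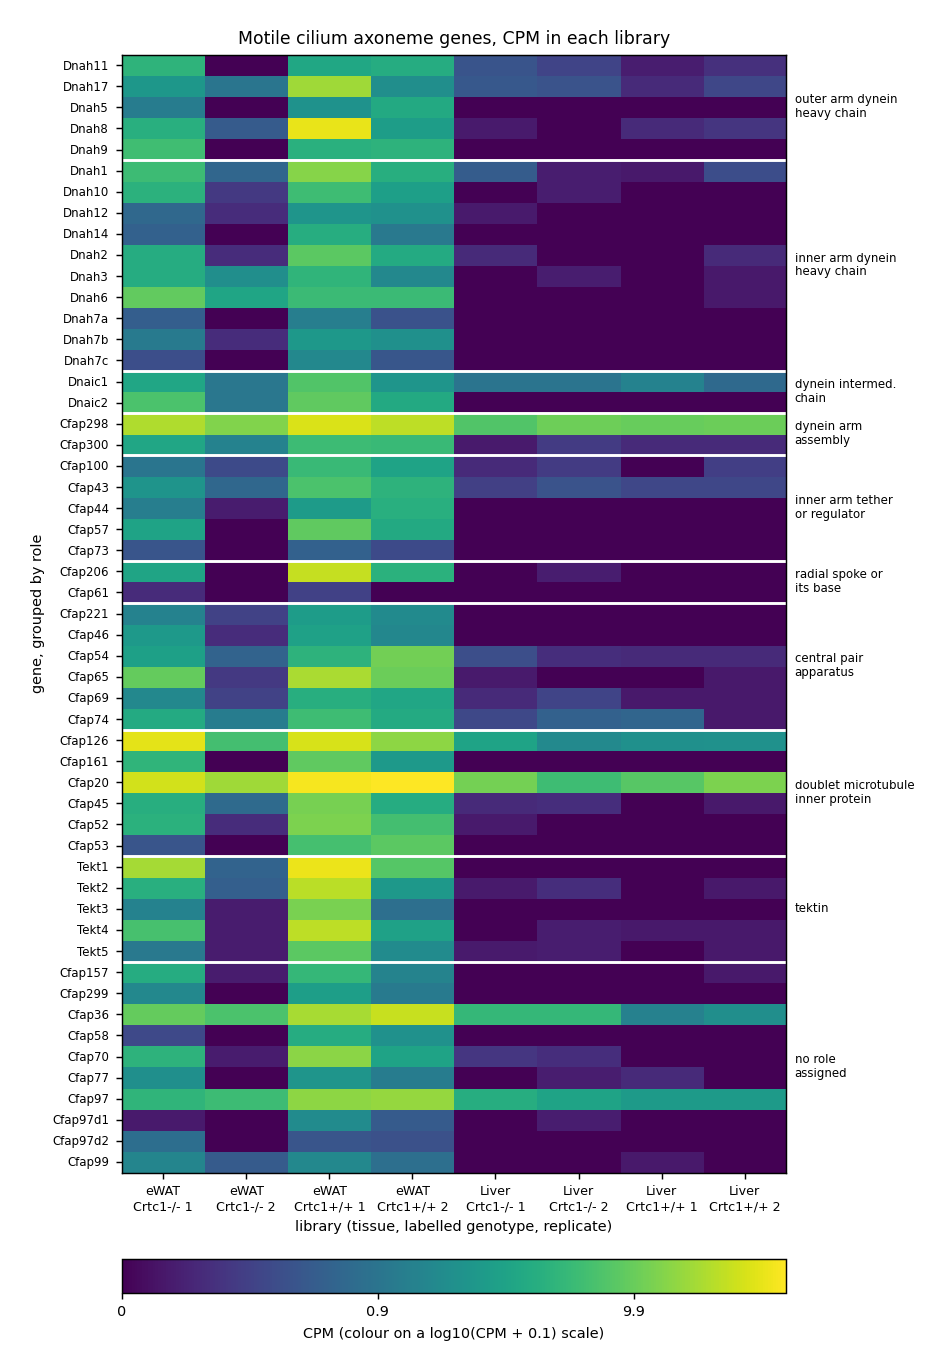
Each row is 1 of the 53 axoneme genes, grouped by role, each column 1 library, and colour gives CPM on a log10(CPM + 0.1) scale. Liver is dark apart from a few rows such as Cfap20 and Cfap298, and among the eWAT columns Crtc1-/- replicate 2 is the darkest.

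Within eWAT, the 2 libraries labelled Crtc1-/- did not resemble each other. Replicate 1 held 245 CPM of axoneme transcripts, which was 63.6% of the Crtc1+/+ mean, and replicate 2 held 65.4 CPM, or 17%. Of the 65.4 CPM in replicate 2, the 6 genes with 10 or more counts in every liver library supplied 49.6 CPM. The 39 genes with at most 3 counts in every liver library summed to 127, 11.5, 316 and 113 CPM, so that replicate 1 kept 59.3% and replicate 2 kept 5.35% of the Crtc1+/+ mean. The level was higher in replicate 1 for 52 of the 53 genes, Cfap97 being the exception, whereas 73.6% of the 15391 genes tested in eWAT were higher in replicate 1. Replicate 2 had no count for 17 of the genes and 3 counts or fewer for 30, against 41 to 45 genes at 3 counts or fewer in the liver libraries. For all genes tested, 44% had both Crtc1-/- libraries below both Crtc1+/+ libraries, and the share for each Crtc1-/- library alone was not counted. For the axoneme genes, replicate 1 lay above both Crtc1+/+ libraries for 5 genes, between them for 23 and below both for 25. Replicate 2 lay below both for 51. The hepatocyte genes at 11.5% of counts in replicate 2 moved with these low values, and their part in the result was not tested.

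The test of genotype in eWAT, with 2 libraries against 2, called 0 of 47 axoneme genes at an adjusted p under 0.05 by edgeR, where 12.2% of all 15391 genes tested were called. At an unadjusted p under 0.05 the count was 5 of 47, against 33.3% of all genes, and by the study's own rule (unadjusted p under 0.01 and a log2 fold change beyond 1 in either direction) it was 0, against 15.9%. DESeq2 called 3 (Cfap53, Cfap58 and Cfap100), where it called 30% of all genes, and limma on log2(FPKM + 1) called 2 (Cfap36 and Cfap53), where it called 13.9%, all lower in Crtc1-/-. The 47 genes passed the filter partly through the libraries in which they are high, so their counts and medians are a description. Fitted log2 fold changes were below 0 for 44 of the 47 genes, against 51.5% of all genes, with a median of -1.35 beside -0.05 for all genes and a range of -5.04 to 0.38. Both Crtc1-/- libraries lay below both Crtc1+/+ libraries for 23 of the 47 genes, or 48.9%, near the 44% of all genes that did so. Without Crtc1-/- replicate 1, the median over the 50 genes tested was -4.44. That fit has a single Crtc1-/- library, which is assumed to vary like the Crtc1+/+ libraries. The median was -0.63 without Crtc1-/- replicate 2 and -0.53 without Crtc1+/+ replicate 1. Each fit without a library leaves 1 library in a genotype, so calls from such fits are not given.

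**Figure D2:**
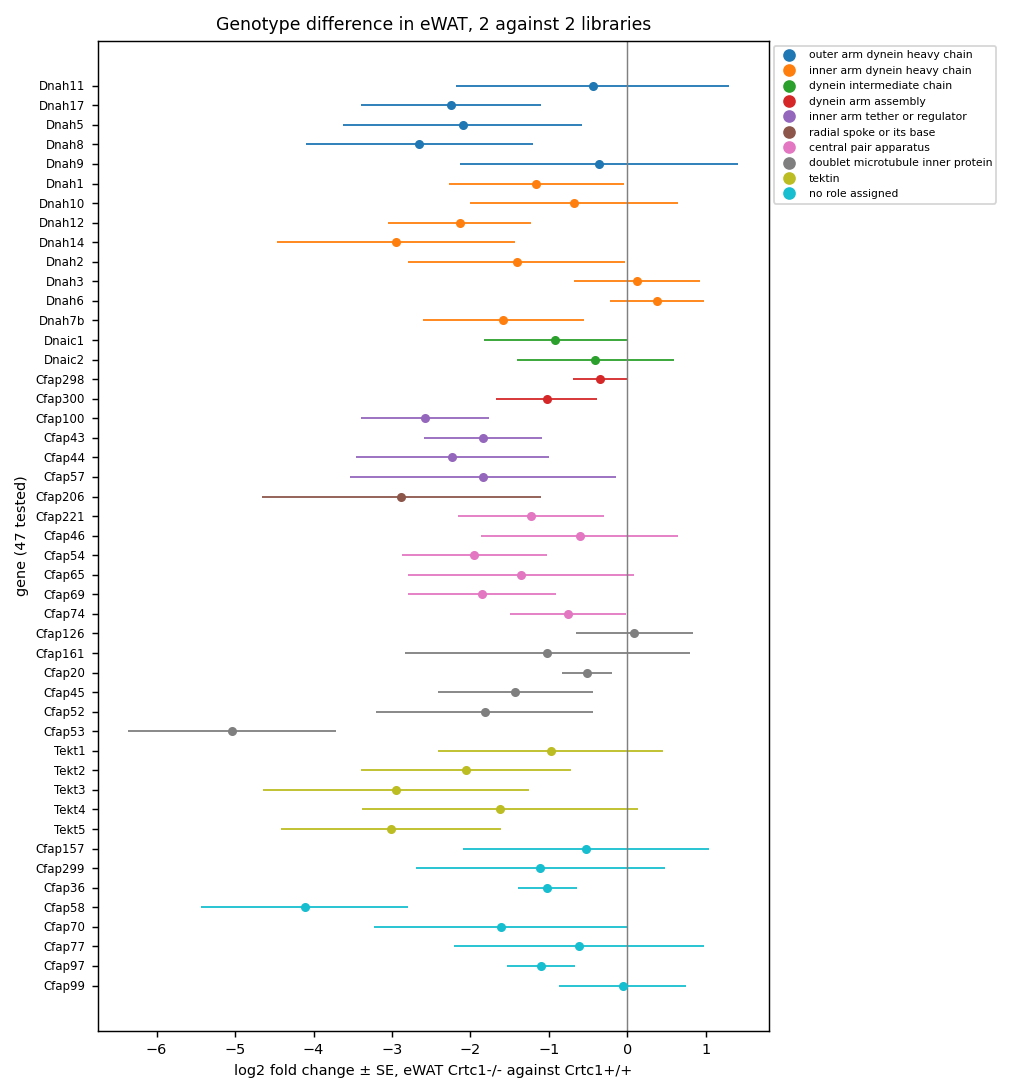
Points give the log2 fold change of the 47 tested axoneme genes in eWAT, labelled Crtc1-/- against Crtc1+/+, bars give SE, and colours give the role. Most points lie below 0, from -5.04 for Cfap53 to 0.38 for Dnah6, and the long bars of most dynein heavy chains and tektins show how far the 2 libraries of a genotype differed.

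The outer arm dynein heavy chains split into 2 patterns. Dnah5, Dnah9 and Dnah11 are the chains of airway and other tissue cilia, and Dnah8 and Dnah17 are those of the sperm tail. Dnah9 had 6.16 CPM in Crtc1-/- replicate 1, no count in replicate 2 (where 3 counts are 0.17 CPM), and 4.37 and 4.66 CPM in the Crtc1+/+ libraries. Dnah11 had 4.77, 0, 3.39 and 3.95 CPM in the same order. For both chains, Crtc1-/- replicate 1 was the highest of the 4 eWAT libraries and replicate 2 was empty, so the genotypes overlapped. The fitted differences were accordingly loose, at -0.36 (SE 1.77, adjusted p = 0.898 by edgeR) for Dnah9 and -0.44 (SE 1.74, adjusted p = 0.875) for Dnah11, and without replicate 2 they were 0.59 and 0.51. Dnah5 had 1.14, 0, 2.02 and 3.63 CPM, with both Crtc1-/- libraries below both others (log2 fold change -2.10, SE 1.52, adjusted p = 0.367).

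Dnah8 had 4.22 CPM in Crtc1-/- replicate 1, 0.454 in replicate 2, 32.1 in Crtc1+/+ replicate 1 and 2.67 in Crtc1+/+ replicate 2. Dnah17 had 2.27, 0.908, 16.7 and 1.82 CPM. Here a single wild-type library stood far above the other 3, by a ratio of 12 for Dnah8 and 9.17 for Dnah17 between the Crtc1+/+ replicates, while that ratio was 0.556 to 0.939 for Dnah5, Dnah9 and Dnah11. The genotype differences of Dnah8 (-2.65, SE 1.45, adjusted p = 0.255) and Dnah17 (-2.25, SE 1.15, adjusted p = 0.231) did not pass the test. The split between the ciliary and the sperm chains was noticed in these values and was not tested.

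Among the 10 inner arm heavy chains, Crtc1-/- replicate 1 held 84.1% of the summed Crtc1+/+ mean and replicate 2 held 16.9%. Dnah6, the gene with the CREB site, had 9.35, 3.23, 5.79 and 5.73 CPM, so that the Crtc1+/+ libraries were alike and the Crtc1-/- libraries lay on either side of them (log2 fold change 0.38, SE 0.60, adjusted p = 0.678 by edgeR, and -0.38 without Crtc1-/- replicate 1). Dnah1, the inner arm chain with the highest mean CPM over the 8 libraries, had 5.94, 0.624, 13.1 and 4.14 CPM (log2 fold change -1.16, SE 1.11, adjusted p = 0.485). Dnah3 had 3.89, 1.82, 4.86 and 1.53 CPM, and with Cfap61 it was 1 of the 2 genes whose level in Crtc1-/- replicate 2 was not below both Crtc1+/+ libraries. Dnah7a, Dnah7b and Dnah7c are near-identical copies, and in Crtc1+/+ replicate 1 their counts were 21.6, 42.3 and 28.1, which are not whole numbers, so their single values are uncertain, and only Dnah7b passed the filter.

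The intermediate chains, which anchor the outer arm motors, overlapped as well. Dnaic2 had 7.13, 0.964, 9.01 and 3.63 CPM, with Crtc1-/- replicate 1 between the Crtc1+/+ libraries and replicate 2 below them (log2 fold change -0.41, SE 1, adjusted p = 0.791 by edgeR). Leaving out Crtc1-/- replicate 2 turned its sign to 0.36. Dnaic1 had 3.35, 0.964, 7.65 and 2.16 CPM and kept 0.664 to 1.32 CPM in liver. The assembly proteins were steadier. Cfap298 had 19.2, 12.4, 28.1 and 21.5 CPM, both Crtc1-/- libraries lying below both others, with a log2 fold change of -0.35 (SE 0.35, adjusted p = 0.503). Cfap300, also an assembly factor, had 3.35, 1.31, 5.84 and 5.62 CPM.

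The proteins that tether or regulate the inner arms kept the least in Crtc1-/- replicate 1 of any role with more than 2 genes, at 37.6% of the summed Crtc1+/+ mean. Cfap57, the most abundant of them, had 3.08, 0, 9.12 and 3.63 CPM (log2 fold change -1.84, SE 1.70, adjusted p = 0.473 by edgeR). Cfap100 had 0.919, 0.284, 5.63 and 3.12 CPM, with no overlap between genotypes (-2.58, SE 0.81, adjusted p = 0.102). For Cfap100, DESeq2 gave an adjusted p of 0.0274. At the base of the radial spoke, Cfap206 had 3.19, 0, 22.9 and 4.43 CPM (-2.88, SE 1.78, adjusted p = 0.301). Of the central pair genes, Cfap65 was the most abundant by counts, with 9.51, 0.17, 18.2 and 10.1 CPM (-1.35, SE 1.44, adjusted p = 0.534). In Crtc1-/- replicate 1 it was just under the lower wild-type library, and in replicate 2 it was close to the level of 3 counts.

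The doublet inner proteins as a sum kept 80.1% of the Crtc1+/+ mean in Crtc1-/- replicate 1, but single genes ranged from 4.97% to 149%. Cfap126, also called Flattop, had 31 CPM in Crtc1-/- replicate 1, 6.52 in replicate 2, and 27.3 and 14.2 in the Crtc1+/+ libraries, so that the first library was the highest and the second the lowest. Its log2 fold change of 0.09 (SE 0.74, adjusted p = 0.936 by edgeR) was -0.15 with library-size scaling and -0.12 with upper-quartile scaling. Cfap20 had 26.1, 16.6, 35.8 and 39.2 CPM, with no overlap (-0.52, SE 0.32, adjusted p = 0.297). Cfap53, which has a part in left-right patterning and in tracheal cilia, had 0.378, 0, 6.61 and 8.63 CPM. Both Crtc1-/- libraries were nearly empty, and the log2 fold change of -5.04 (SE 1.32) had the lowest adjusted p of the 47 genes tested, 0.0703 by edgeR. DESeq2 gave an adjusted p of 0.000188 for Cfap53, and limma on log2(FPKM + 1) gave 0.0235. Of the genes with no role assigned, Cfap58 had a like pattern, with 0.27, 0, 3.93 and 1.93 CPM (-4.11, SE 1.32, adjusted p = 0.106). Together with Cfap97d1 these were the 3 genes that kept a smaller part of the Crtc1+/+ mean in replicate 1 than the protamines did.

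All 5 tektins were much higher in 1 wild-type library than in the other. Tekt1 had 17.5, 0.567, 33.1 and 8.06 CPM. Tekt2, with an X-box match 17 bases before 1 start and 59 before another, had 4.22, 0.511, 21.1 and 2.33 CPM. Tekt4 had 6.81, 0.0567, 21.6 and 2.95 CPM. In each case Crtc1-/- replicate 1 lay between the Crtc1+/+ libraries and replicate 2 was almost without the transcript. Tekt3, with 1.3, 0.0567, 11.7 and 0.795 CPM, gave the widest gap between Crtc1+/+ replicates of the 52 genes with a ratio, 14.7, and the tektins together ranged from 4.11 to 14.7 with a median of 7.31. The median over those 52 genes was 1.96. Tekt5 had 1.03, 0.0567, 8.68 and 1.7 CPM and was the tektin with both Crtc1-/- libraries below both others. Fitted log2 fold changes ran from -3.01 to -0.98 and none passed the test. Without Crtc1+/+ replicate 1 the sign turned for Tekt1 (0.24), Tekt2 (0.15) and Tekt4 (0.29).

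The protamines did not overlap between genotypes in eWAT. Prm1 had 27.9, 3.63, 218 and 73.5 CPM and Prm2 had 31.6, 2.95, 463 and 241 CPM in the same order, with both Crtc1-/- libraries below both Crtc1+/+ libraries. The log2 fold changes were -2.98 (SE 1.03, adjusted p = 0.121 by edgeR) and -4.13 (SE 1.12, adjusted p = 0.0763). DESeq2 gave an adjusted p of 0.00476 and 5.27e-05. Summed, the protamines kept 11.9% of the Crtc1+/+ mean in Crtc1-/- replicate 1, where the axoneme genes kept 63.6%, and 1.32% in replicate 2, where the axoneme genes kept 17%. For 50 of the 53 axoneme genes the kept part in replicate 1 was larger than that of the protamines, with a median of 58.5% and a range of 4.97% to 209%. Axoneme CPM per protamine CPM was 0.744 and 0.839 in the Crtc1+/+ libraries, 4.12 in Crtc1-/- replicate 1 and 9.94 in replicate 2, so the ratio did not overlap between genotypes. For the 39 genes with at most 3 counts in every liver library the ratio was 0.463 and 0.359 in the Crtc1+/+ libraries, 2.14 in Crtc1-/- replicate 1 and 1.74 in replicate 2. The genotypes again did not overlap, but the order of the Crtc1-/- libraries was the reverse and 9.94 became 1.74. In liver the protamines summed to at most 0.315 CPM, so no ratio is given.

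**Figure D3:**
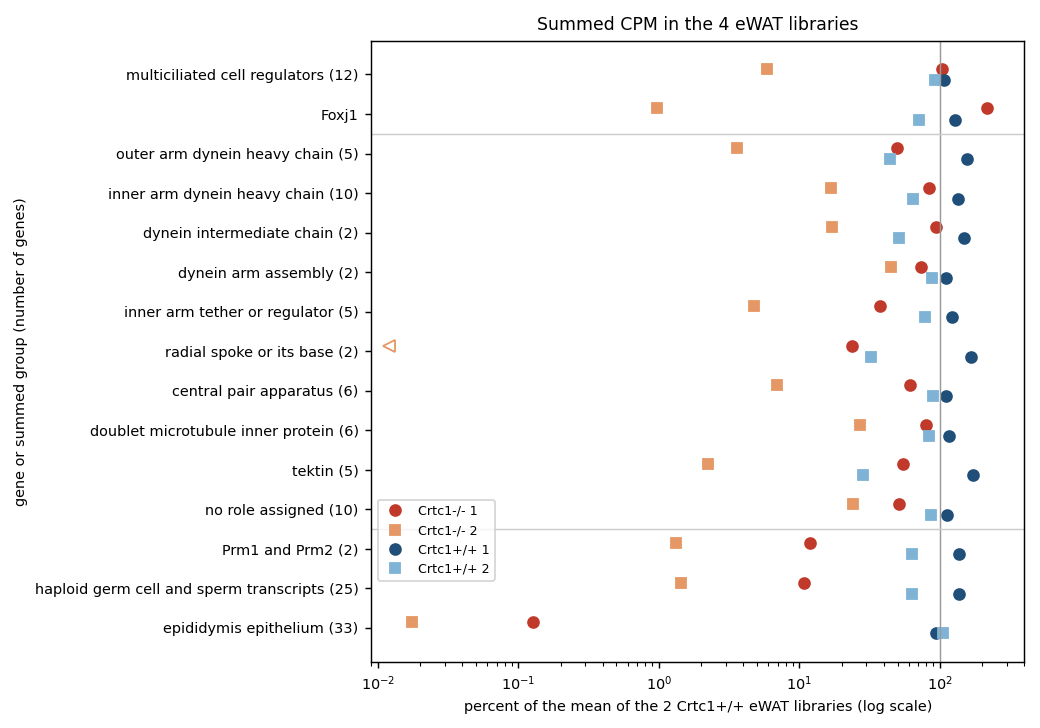
The horizontal log axis gives summed CPM as a percent of the mean of the 2 Crtc1+/+ eWAT libraries, for each role of the axoneme genes and for comparison groups, with the 4 eWAT libraries as separate points and an open triangle for a sum of 0. Crtc1-/- replicate 1 sits at 23.9% to 93.4% for the axoneme roles, at 11.9% for the protamines and at 0.127% for the epididymal epithelium list.

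Foxj1, the forkhead factor of motile ciliogenesis, was not low in Crtc1-/- replicate 1. It had 1400, 6, 825 and 436 counts, or 75.7, 0.34, 45.1 and 24.8 CPM, so that Crtc1-/- replicate 1 was the highest and replicate 2 the lowest of the eWAT libraries. Its log2 fold change of 0.31 (SE 1.77, adjusted p = 0.913 by edgeR) turned to -2.08 with the replicate block and to -6.19 without Crtc1-/- replicate 1. The 12 multiciliated cell regulators summed to 122, 6.92, 126 and 109 CPM. Of the 10 that were tested, 1 was called lower, where 5.54% of all genes were called lower. It was Ccno, a cyclin-like protein of centriole amplification, with 2.59, 0.567, 31.2 and 53.7 CPM (-4.50, SE 0.79, adjusted p = 0.0328 by edgeR). In Crtc1-/- replicate 1, 4 of the 12 were above both Crtc1+/+ libraries and 7 were below both, and the shares of all genes were not counted.

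A list of 25 haploid germ cell transcripts, the protamines included, summed to 166, 22.3, 2103 and 971 CPM, and edgeR called 4 of 25 lower and none higher, where 5.54% of all genes were called lower. None of the 25 was above both Crtc1+/+ libraries in Crtc1-/- replicate 1 and 20 were below both, with no share of all genes counted. Their median kept part in that library was 11.7%, against 58.5% for the axoneme genes. Odf1, of the outer dense fibres of the tail, fell from 91.5 and 62.8 CPM to 3.57 and 0.794 CPM (log2 fold change -4.89, SE 0.74, adjusted p = 0.0263). The wide gap between the Crtc1+/+ replicates was shared by some germ cell genes and not by others. Ldhc, the germ cell lactate dehydrogenase, had 145 and 11.4 CPM in Crtc1+/+ replicates 1 and 2, Ddx4, a germ cell RNA helicase, had 9.07 and 0.624 CPM, and the 8 genes of the list of earlier germ cells summed to 42.1 and 2.04 CPM (0 of 2 tested were called). Prm2 and Odf1 had ratios of only 1.92 and 1.46. The ratio of the summed protamines was 2.16, and 23 of the 52 axoneme genes exceeded it.

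**Figure D4:**
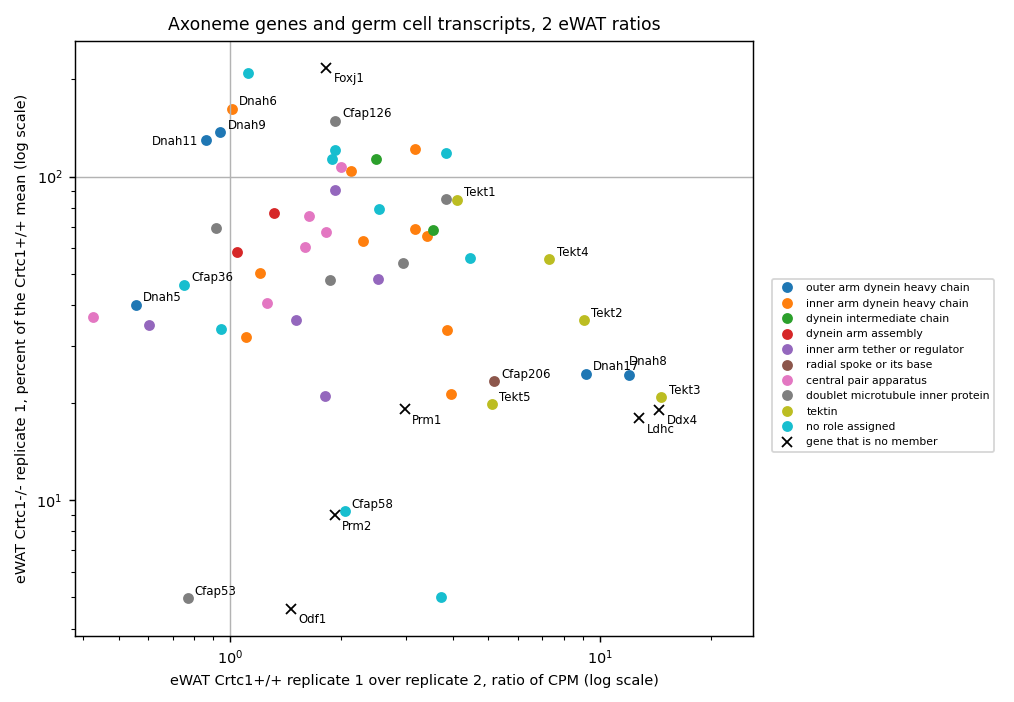
Each point is an axoneme gene, coloured by role, with the ratio of the 2 Crtc1+/+ eWAT libraries on the horizontal log axis and the level in Crtc1-/- replicate 1 as a percent of the Crtc1+/+ mean on the vertical log axis, and crosses mark genes outside the group. The tektins, Dnah8 and Dnah17 lie to the right, towards Ldhc and Ddx4, whereas Dnah6, Dnah9, Dnah11 and Cfap126 lie near or above 100%, below Foxj1.

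Other axoneme parts, taken from a separate list of radial spoke, regulatory complex, docking, central pair and ruler genes, were measured in the same way. Their 44 genes summed to 337, 86.7, 596 and 297 CPM in eWAT. Of 43 tested, edgeR called 0, with 4 at an unadjusted p under 0.05 and a median log2 fold change of -1.27. Their median kept part in Crtc1-/- replicate 1 was 61.9%. For the 14 dynein assembly factors the sums were 177, 107, 280 and 146 CPM, with 0 of 13 called, 0 at an unadjusted p under 0.05 and a median of -0.63. The 28 intraflagellar transport genes, which primary cilia also need, summed to 434, 261, 610 and 560 CPM, with 0 of 28 called, 7 at an unadjusted p under 0.05 and a median of -0.88. Over all genes tested in eWAT, 12.2% were called and 33.3% had an unadjusted p under 0.05, so none of these lists was above that background. In liver the transport genes summed to 115 to 137 CPM, against 26.5 to 35.1 CPM for the axoneme genes.

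The cell type lists moved beside these results, and their part in them was not tested. The epididymal epithelium genes were called lower for 28 of 33 by edgeR, where 5.54% of all genes were called lower. All 33 measured lay below both Crtc1+/+ libraries in Crtc1-/- replicate 1, and the share of all genes was not counted. The 8 bile duct epithelium genes, among them the duct keratin Krt19, summed to 109, 18.4, 943 and 981 CPM with 2 called lower. The 7 mesothelial genes differed in direction. Upk1b, the uroplakin called lower, had 7.62, 3.8, 42.2 and 59.2 CPM and set the order of the list's sums of 50.9, 29.7, 68.8 and 72.4 CPM. Msln, the mesothelin, had 14.9, 8.74, 6.06 and 2.95 CPM and Upk3b had 15.1, 10.8, 7.81 and 3.58 CPM, higher in both Crtc1-/- libraries without passing the test, and the median log2 fold change of the list was 0.80. Adipocyte genes were called higher for 9 of 12, where 6.65% of all genes were called higher, and hepatocyte genes for 1 of 12, which was Cyp2e1. Gpx5 had 1.78 CPM in Crtc1-/- replicate 1, where Foxj1 was high, and 5.73 CPM in replicate 2, where Foxj1 was low. In the Crtc1+/+ libraries Gpx5 had 46260 and 55430 CPM. The summed epididymal list had the other order in the Crtc1-/- libraries, with 146 CPM in replicate 1 and 20.2 CPM in replicate 2. Whether Foxj1 follows epididymal content was not tested.

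Strand limits some of these values. An exon of 22 of the 53 genes overlaps an exon of another gene on the other strand in the GENCODE annotation, among them Dnah1, Dnah6, Dnah8, Dnah9, Dnah11, Dnah17, Dnaic1, Tekt2, Cfap65, Cfap97, Cfap100 and Cfap298. Whether counting used strand is not given in the sources used here, and without strand, reads of such a pair cannot be told apart.

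In liver, 7 of the 53 genes passed the filter, and edgeR called 0 of them between genotypes, where 0.0854% of all 11707 genes tested were called. At an unadjusted p under 0.05 the count was 1, against 17.3% of all genes, and by the study's own rule it was 1, against 4.27%. DESeq2 called 1, where it called 3.22% of all genes. In each case the gene was Cfap36. Cfap20 had 11.2 and 6.1 CPM in libraries labelled Crtc1-/- against 8.21 and 12 CPM (log2 fold change -0.28, SE 0.36, adjusted p = 0.715), and Cfap126 had 3.1 and 1.57 against 1.93 and 1.94 CPM (0.23, SE 0.45, adjusted p = 0.821), both with overlap. The sign of Cfap20 turned to 0.10 without Crtc1-/- replicate 2 and that of Cfap126 to -0.37 without Crtc1-/- replicate 1. Cfap97 had 4.05 and 3.08 against 2.49 and 2.5 CPM (0.46, SE 0.38, adjusted p = 0.539).

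Cfap36, also known as an Arl3-binding protein of the cilium, was the only axoneme gene called for a genotype difference that was unequal in the 2 tissues. Its eWAT level was 9.58 and 7.12 CPM for Crtc1-/- against 17.8 and 23.7 CPM for Crtc1+/+. In liver it had 5.21 and 5.18 CPM against 1.27 and 1.82 CPM. It was thus lower in both eWAT Crtc1-/- libraries and higher in both liver Crtc1-/- libraries, with no overlap in either tissue, where 44% of genes in eWAT were lower without overlap and 28.4% of genes in liver were higher without overlap. The log2 fold change was -1.02 (SE 0.38, adjusted p = 0.139) in eWAT and 1.68 (SE 0.39, adjusted p = 0.123) in liver, neither of which passed edgeR's test. The interaction of tissue and genotype was -2.78 (SE 0.46, adjusted p = 0.0198 by edgeR), the only call among 47 axoneme genes tested, where 6.94% of all genes were called. At an unadjusted p under 0.05 the count was 3 of 47, against 26.9% of all genes. Over other settings and with each library left out, the interaction of Cfap36 ranged from -3.09 to -2.52. Whether its call rests on 1 library cannot be judged, because a fit without that library leaves a single one in the group.

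The 2 scales of the deposited tables gave Cfap36 different sizes. As CPM, the mean of the eWAT Crtc1-/- libraries was 40.3% of the Crtc1+/+ mean, and as FPKM it was 23%. In liver the Crtc1-/- mean was 3.37 times the Crtc1+/+ mean as CPM and 1.93 times as FPKM. FPKM divided by CPM, which depends on the transcript length used for scaling, was 0.362 and 0.382 in eWAT and 0.38 and 0.355 in liver for libraries labelled Crtc1-/-. In libraries labelled Crtc1+/+ it was 0.634 and 0.66 in eWAT and 0.726 and 0.584 in liver. The 4 Crtc1-/- libraries therefore lay apart from the 4 Crtc1+/+ libraries in both tissues, the lowest of one being 1.53 times the highest of the other. Of 9055 genes with at least 25 counts in every library, Cfap36 was the only one past 1.5 times in either direction, and also the only one past 1.2 times. For the other axoneme genes with at least 50 counts in every eWAT library (Cfap20, Cfap97, Cfap126, Cfap298 and Dnah6), the mean ratio in Crtc1+/+ was 0.969 to 1.01 times that in Crtc1-/-. These thresholds were chosen after the values were seen, and the difference was not tested. Cfap36 lies on chromosome 11 from 29218918 to 29247317 in GRCm38.p6, and its counts were whole only in liver Crtc1+/+ replicate 1, where it had 25.

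**Figure D5:**
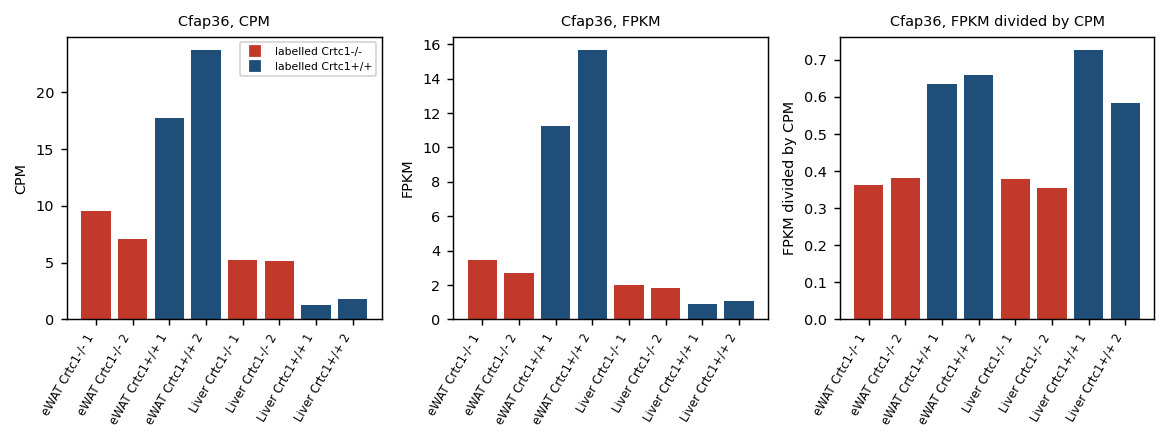
Bars give Cfap36 in the 8 libraries as CPM, as FPKM and as FPKM divided by CPM, all from 0, with colours for the labelled genotype. The CPM of the 2 tissues move in opposite directions, and in the last panel every Crtc1-/- bar (0.355 to 0.382) is below every Crtc1+/+ bar (0.584 to 0.726).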

How the data were processed

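Total RNA of liver and eWAT was sequenced in 8 libraries. The authors deposited a table of estimated counts per gene and a table of FPKM values. The submitters' processing notes name HISAT, Bowtie2 and GRCm38.p6, and the counting tool is not given in the sources used here. The study normalised between arrays and tested with limma at an absolute log2 fold change over 1 and p under 0.01.

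The deposited estimated counts were rounded and tested with edgeR 4.0.16 in R 4.3.3 (filterByExpr, TMM scaling, quasi-likelihood test, Benjamini-Hochberg adjustment over all genes), within each tissue for genotype, and over all 8 libraries for the interaction and for tissue. The deposited FPKM values served for levels per length and for limma 3.58.1 on quantile-normalised log2(FPKM + 1). DESeq2 1.42.0, other scalings and filters, a replicate block and leaving out each library were alternatives. The scripts were tested on simulated counts. Intervals are 95% Wilson intervals (scipy 1.17.1), tables used pandas 2.3.3 and plots matplotlib 3.10.9 in Python 3.11.15. With 2 mice per group, p-values weigh a difference against the spread between libraries. In eWAT that spread also holds differences in tissue content, such as hepatocyte genes. The main fits over all 8 libraries took them as independent, although both tissues may come from the same mice. Totals of 16560085 to 19721481 counts make 3 counts 0.152 to 0.181 CPM.

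Genes were named by rule: any gene called in a genotype comparison or the interaction, the gene with the highest mean CPM of each role, and the 3 highest of each tissue, beside Prm1, Prm2, Foxj1, Crtc1 and up to 3 abundant genes of a list. This gave Cfap20, Cfap36, Cfap57, Cfap65, Cfap126, Cfap206, Cfap298, Dnah1, Dnah8, Dnaic2 and Tekt1. Other axoneme genes, and Odf1, Ldhc, Ddx4, Ccno, Cyp2e1, Upk1b, Msln and Upk3b, were named after their values were seen. The axoneme genes and all lists were chosen with earlier results of these data known.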

Additional observations from a re-analysis of the deposited data

Results flagged for a closer look

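Cfap36 drew attention because its genotype difference was not the same in the 2 tissues. The log2 fold change between libraries labelled Crtc1-/- and Crtc1+/+ was -1.02 in eWAT and 1.68 in liver, and the interaction of tissue and genotype was -2.78 (SE 0.46, adjusted p = 0.0198 by edgeR). Both Crtc1-/- libraries were lower in eWAT and both were higher in liver. Over its alternatives the interaction ranged from -3.09 to -2.52. Whether its call rests on 1 library cannot be judged from fits that leave a single library in a group. FPKM per CPM of the same gene separated the genotypes in both tissues, and the part of that in the interaction was not tested.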

How the results depend on the processing

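Of 445 values of named genes under alternatives, 385 kept their direction and their side of the threshold, 27 passed it newly, 5 lost it and 28 changed sign. In eWAT, 0 axoneme genes were called by edgeR, where 12.2% of all genes were called, and 3 by DESeq2 (30% of all genes). There were 2 by limma on log2(FPKM + 1) (13.9%), 2 with 0.1 added (12.3%) and 2 with all 8 libraries in 1 fit (24.8%). Leaving out each library gave medians from -4.44 to -0.53. Such fits leave 1 library in a group, so their calls are not given here or below. In liver, 0 calls became 1 by DESeq2, where 3.22% of all genes were called, and 1 without an expression filter, where 1.89% were called. The same holds for the interaction with a library left out. Between tissues, 35 calls (54.9% of all genes called) became 46 with library-size scaling (75.9% of all genes), 13 of 15 tested at a mean count of at least 50, where fewer genes were tested, and 4 to 42 with a library left out, the fewest without liver Crtc1+/+ replicate 1. The cause of the other changes was not tested. Library-size scaling moved the median of all genes in eWAT from -0.05 to -0.35 and upper-quartile scaling to -0.25.

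In eWAT, the sign of Cfap126 changed to -0.15 with library-size scaling, -0.12 with upper-quartile scaling, -0.3 and -0.33 by limma with 1 and 0.1 added, and -0.05 with all libraries. By limma with 1 added it changed for Dnah9 (0.02), Dnah11 (0.02), Dnaic2 (0.09) and Foxj1 (-1.09), and with 0.1 added for Dnaic2 (0.08) and Foxj1 (-1.8). With a library left out, log2 fold changes crossed 0 for 9 genes. They ran from -1.2 to 0.75 for Cfap126, -0.38 to 0.85 for Dnah6, -9.2 to 0.59 for Dnah9, -8.91 to 0.51 for Dnah11, -2.24 to 0.36 for Dnaic2 (0.29 without Crtc1+/+ replicate 1), -6.19 to 1.29 for Foxj1, -4.69 to 0.24 for Tekt1, -4.02 to 0.15 for Tekt2 and -7.14 to 0.29 for Tekt4. The lowest of each was without Crtc1-/- replicate 1. For Dnah9 and Dnah11 the remaining Crtc1-/- library had no count, so these values are no bounds. In liver the range was -0.8 to 0.1 for Cfap20 and -0.37 to 0.64 for Cfap126.

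Within a tissue, same-numbered libraries share only a number, and their deviations correlated at -0.04 in eWAT and 0.07 in liver. Across tissues the correlations were 0.02 for Crtc1-/- and 0.21 for Crtc1+/+, and whether a number marks 1 mouse there is not stated in the labels. With the replicate block, 0% of all genes were called in eWAT, so the 0 axoneme calls there say nothing about these genes. Their median was -1.94. Between tissues 38 axoneme genes were called, where 59.2% of all genes were called. In eWAT the sign changed for Cfap126 (-0.15) and Foxj1 (-2.08). Genes at 3 counts or fewer, 30 of the 53 in eWAT Crtc1-/- replicate 2, cannot be ranked at this depth.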

Other observations

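In liver, the summed epididymal epithelium list reached 111 and 16.6 CPM where the label was Crtc1-/-, against 3.04 and 3.32 CPM where it was Crtc1+/+, while axoneme genes summed to 35.1 and 30.3 against 26.5 and 31.3 CPM. Across the 53 axoneme genes in eWAT, the log2 ratio of the 2 Crtc1+/+ libraries and that of the 2 Crtc1-/- libraries, with 0.5 counts added, had a Spearman's rho of 0.22. These points share their libraries, and genes are not independent replicates.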
